A study of Mus musculus with 9 samples.

Results

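The genes described here are 8 receptors and secreted pattern-recognition proteins that mark macrophages of the mouse spleen: Marco, Msr1, Cd36, Cd5l, Mrc1, Cd209b, Siglec1 and Timd4. They were picked by name, with their levels in these libraries already known, from 56860 genes in a table of RNA-seq read counts. Levels and differences of the 8 genes are therefore descriptions and are given without p-values. How many of them met the threshold used for all genes is counted below only to be set beside the share of all genes, and nothing is read from it. The RNA came from mouse spleen cells that the labels call CD4+ T cells, in 3 groups of 3 libraries. One group came from control mice, one from mice with CIA, the usual abbreviation of collagen-induced arthritis, and the last from CIA mice that received the plant flavone luteolin. None of the groups had luteolin without CIA. The labels give no strain, age, dose or duration, and do not say whether a replicate is 1 animal, a pool or a technical repeat, so the spread between replicates, and each p-value below, may be technical. Groups are called by their labels throughout.

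Macrophages of the spleen filter blood, and they sit in separate places with separate receptors. Marco and Cd209b are textbook markers of marginal zone macrophages, Siglec1 marks the metallophilic macrophages at the inner edge of that zone, and Cd5l, Mrc1 and Timd4 are known from resident macrophages, Cd5l and Mrc1 mainly from the red pulp. Scavenger receptors bind modified lipoproteins, bacteria and dying cells that carry negatively charged surfaces, lectins such as Mrc1 and Cd209b bind sugars, and Timd4 binds phosphatidylserine on apoptotic cells. None of these genes is a defining gene of CD4+ T cells.

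Total counts ranged from 31234177 to 41815573 per library. Levels are given in CPM, in which counts are divided by TMM-adjusted library size, and as mean ± SD (n = 3) where 1 value is given per group. RPKM, the CPM per kilobase of exons, is used where genes are compared with each other. Cd4 itself was at 3.65, 2.46 and 2.66 CPM in replicates 1 to 3 of the control libraries, at 82.1, 151 and 150.3 CPM in CIA and at 106, 106 and 98.5 CPM with luteolin. Csf1r, the growth factor receptor that macrophages and monocytes depend on, was at 65.2 ± 1.78, 75.2 ± 15.3 and 284 ± 32.4 CPM in control, CIA and luteolin. Sums over marker lists, with the lowest and highest library, were 169 to 193 CPM in control, 312 to 519 in CIA and 333 to 359 in luteolin for 11 T cell genes. Cd4 is among the 11 and Lck (81.5, 84.3 and 71.65 CPM) was the largest part of the control sum. In CIA against control 9 of the 11 rose and 1, Cd8a (17.6 to 4.77 CPM), fell. The sum of 9 dendritic cell genes, 214 to 224 CPM in control, 102 to 161 in CIA and 172 to 181 in luteolin, is carried by Tcf4 (162, 97.5 and 81.5 CPM), a gene that B cells express too. Gene by gene, 6 of the 9 fell and 1 rose in CIA, and 4 rose and 1, Tcf4, fell with luteolin against control. Of 9 erythroid genes 6 were tested, and their sum of 76.4 to 78.7 CPM in control, 77.5 to 106 in CIA and 97.7 to 112 in luteolin is almost all Tfrc, which dividing cells of other types express. None of the 6 passed in CIA, and 4 fell, among them Hba-a1 and Hbb-bs, and 1, Tfrc, rose with luteolin against control. In bulk RNA of this kind, fewer cells of a type and less RNA per cell cannot be told apart.

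Promoter sequence was at hand in RefSeq (build GRCm38.p6) for 6 of the 8 genes: Marco, Cd36, Cd5l, Mrc1, Cd209b and Timd4. The 250 bases before the start site are shown for Marco, Cd5l and Mrc1, which were low in CIA and carry there the motif GAGGAA, the core bound by the myeloid factor PU.1; these 3 were chosen after the matches were seen. Each is written 5′ to 3′ on the strand of its gene, and capitals mark that motif or its reverse complement TTCCTC. The windows are chr1:120505025-120505274 on the minus strand, chr3:87357631-87357880 on the plus strand and chr2:14229164-14229413 on the plus strand.
Marco: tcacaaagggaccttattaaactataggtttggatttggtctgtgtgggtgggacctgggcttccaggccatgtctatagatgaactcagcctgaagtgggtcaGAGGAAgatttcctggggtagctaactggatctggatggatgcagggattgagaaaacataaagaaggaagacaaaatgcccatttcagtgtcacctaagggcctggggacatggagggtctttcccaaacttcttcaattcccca
Cd5l: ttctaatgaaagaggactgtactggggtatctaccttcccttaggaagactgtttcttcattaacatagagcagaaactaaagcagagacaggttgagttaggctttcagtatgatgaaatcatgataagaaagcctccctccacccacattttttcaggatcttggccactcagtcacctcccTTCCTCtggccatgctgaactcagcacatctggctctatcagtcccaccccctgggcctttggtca
Mrc1: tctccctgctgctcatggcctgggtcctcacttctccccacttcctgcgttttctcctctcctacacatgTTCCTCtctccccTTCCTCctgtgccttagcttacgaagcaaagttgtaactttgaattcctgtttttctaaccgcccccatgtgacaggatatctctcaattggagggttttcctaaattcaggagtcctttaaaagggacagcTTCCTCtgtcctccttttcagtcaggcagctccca
The motif stood once in the window of Marco, once in that of Cd5l and at 3 places in that of Mrc1. It was in neither orientation in the windows of Cd36, Cd209b and Timd4, of which Timd4 was low in CIA too. Msr1 and Siglec1, also low in CIA, had no window at hand. Of all 32851 promoter windows of this length, 23.3% hold it on either strand. The nuclear receptor half-site AGGTCA, present in 14.0% of windows, was found in those of Cd36 and Timd4. An interferon response motif, GAAA followed by any 2 bases and again GAAA, is present in 2.98% of windows and was in none of the 6. Both strands were searched, these are matches of letters only, and no window of the 6 held different motifs together. Spi1, the gene of PU.1, was not low in CIA, and binding of PU.1 to these windows was not tested.

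Marco and Msr1 are class A scavenger receptors, trimers with a collagen-like stalk. Marco (chromosome 1, 120402267 to 120432753, minus strand, build mm39) was at 39.9, 38.9 and 16.6 CPM in replicates 1 to 3 of the control libraries. In CIA it was at 0.723, 0.292 and 0.761 CPM, and with luteolin at 45.6, 33.5 and 43.3 CPM. Every CIA library was below every other library, while control and luteolin libraries overlapped. The fitted log2 fold change was -5.75 ± 0.42 (± SE, edgeR) in CIA against control and 6.11 ± 0.42 with luteolin against CIA, which is 68.9-fold. With luteolin against control it was 0.36 ± 0.29. Control replicate 3 was at 0.420 of the mean of the other 2 control libraries, and without it the last value was 0.05.

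Msr1 (chromosome 8, 40034726 to 40095714, minus strand) differed in the same directions but to other levels. It was at 14.5, 12.96 and 11.2 CPM in the control libraries, 3.03, 2.66 and 5.69 CPM in CIA and 114, 110 and 104 CPM with luteolin. The 3 groups did not overlap, and the luteolin libraries were the highest. Against control, Msr1 was 3.42-fold lower in CIA (log2 fold change -1.78 ± 0.23) and 8.46-fold higher with luteolin (3.08 ± 0.22). Its difference between luteolin and CIA was 4.86 ± 0.24. Per length, Msr1 stood at 0.101 to 0.205 of Marco in single libraries labelled control and at 0.727 to 0.997 of it with luteolin, ranges that did not overlap. In CIA the order of the pair was turned, with Msr1 at 1.27 to 2.76 times Marco.

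Cd5l, also called AIM, is a secreted protein with scavenger receptor cysteine-rich (SRCR) domains that promotes macrophage survival. Cd5l (chromosome 3, 87265188 to 87278380, plus strand) was at 38.9, 36.2 and 15.2 CPM in the control libraries, 1.06, 0.175 and 0.0993 CPM in CIA and 25.4, 15.2 and 19.98 CPM with luteolin. All CIA libraries were below all others, and CIA replicate 1 was well above the other 2 of its group. The log2 fold change of CIA against control was -6.01 ± 0.59, and -7.72 without CIA replicate 1. With luteolin against CIA it was 5.44 ± 0.59, or 7.15 without that library. The luteolin and control libraries overlapped (-0.58 ± 0.41).

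Mrc1 encodes the mannose receptor CD206, which takes up glycoproteins with terminal mannose. Mrc1 (chromosome 2, 14234203 to 14336868, plus strand) was at 3.83, 3.41 and 1.77 CPM in the control libraries, 0.278, 0.205 and 0.132 CPM in CIA and 18.4, 20.5 and 14.9 CPM with luteolin. The groups were fully separate, with CIA lowest and luteolin highest. Its log2 fold changes were -3.84 ± 0.37 in CIA against control, 6.40 ± 0.35 with luteolin against CIA and 2.57 ± 0.25 with luteolin against control. The CIA libraries held 10, 7 and 4 counts, so the folds against CIA rest on few reads.

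Siglec1, or CD169, is a lectin that binds sialic acid and captures particles and viruses. Siglec1 (chromosome 2, 130911140 to 130928685, minus strand) was at 1.08, 1.43 and 0.950 CPM in the control libraries, 0, 0 and 0.132 CPM in CIA and 17.5, 17.5 and 14.8 CPM with luteolin. Counts were 0, 0 and 4 in CIA, against 43, 56 and 30 in control and 739, 697 and 500 with luteolin, and no 2 groups overlapped. Summed over libraries and scaled for depth, luteolin stood at 420 times CIA, with an exact 95% interval of 116 to 3480 for counting error alone. The interval takes counts halved, since both mates of a read pair appear to have been counted. For CIA the ratio to control was 0.0344, with an interval of 0.00408 to 0.130. The difference between luteolin and control rests on more reads, and the fitted log2 fold change was 3.84 ± 0.28, which is 14.3-fold. Every count in CIA came from replicate 3. Leaving it out moved the fitted change of luteolin against CIA from 8.58 to 12.27 and that of CIA against control from -4.74 to -8.43, values that depend on the prior count.

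Timd4, the phosphatidylserine receptor TIM-4, was scarce in all libraries. Timd4 (chromosome 11, 46701627 to 46735159, plus strand) had 17, 20 and 10 counts in the control libraries, 2, 5 and 5 in CIA and 60, 43 and 37 with luteolin. In CPM this was 0.425, 0.512 and 0.317 in control, 0.0556, 0.146 and 0.165 in CIA and 1.42, 1.08 and 1.10 with luteolin. As for Msr1, Mrc1 and Siglec1, CIA was lowest and luteolin highest with no overlap between groups. The log2 fold changes were -1.78 ± 0.45, 3.29 ± 0.41 and 1.51 ± 0.34 in CIA against control, luteolin against CIA and luteolin against control.

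Cd209b, the lectin SIGN-R1 that takes up blood-borne polysaccharides, was close to absent from the table. Cd209b (chromosome 8, 3967655 to 3976844, minus strand) had 1 count in control replicate 3 and 0 in the other 8 libraries, and was not tested. A count of 0 allows up to 3 fragments, or 6 counts with both mates counted, which is 0.142 to 0.198 CPM depending on the library. Its paralogs Cd209a, Cd209c, Cd209d, Cd209e, Cd209f and Cd209g had 4, 9, 2, 0, 2 and 2 counts over all 9 libraries, so none of this gene cluster was tested. How reads matching several copies were handled is not given in the sources used here. Marco, the other marker of marginal zone macrophages, had 1595, 1520 and 523 counts in the same control libraries that held 1 of Cd209b.

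**Figure D1:**
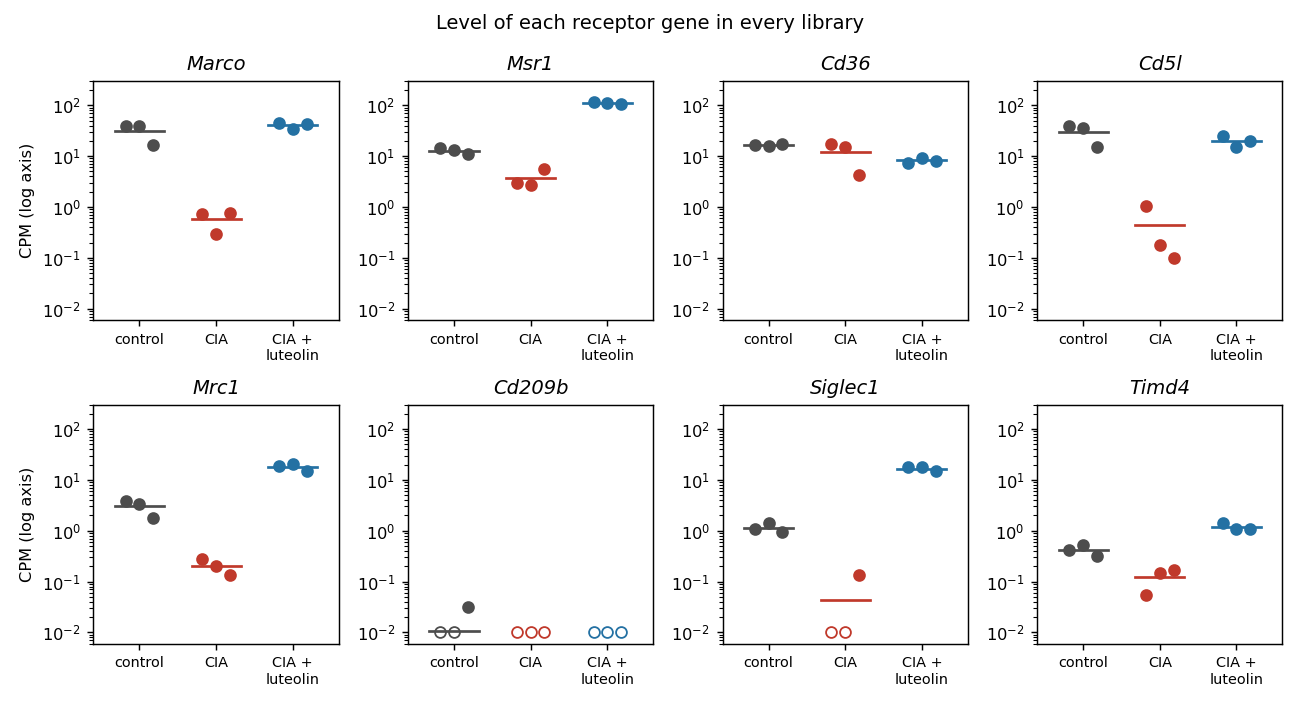
Level of each of the 8 genes in every library, in CPM on a log axis shared by all panels, with replicates 1 to 3 from left to right in each group and the group mean as a line. Open circles stand for 0 counts and are drawn at 0.01 CPM. Marco, Msr1, Cd5l, Mrc1, Siglec1 and Timd4 were lowest in CIA, Cd36 was not, and Cd209b was at 0 in 8 of 9 libraries.

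Cd36, a class B scavenger receptor for oxidised lipids and fatty acids, did not follow the others. Cd36 (chromosome 5, 17986688 to 18093799, minus strand) was at 16.3, 16.1 and 17.1 CPM in the control libraries, 17.6, 15.1 and 4.24 CPM in CIA and 7.50, 9.24 and 8.05 CPM with luteolin. CIA replicate 1 lay just above the control range and replicate 2 just below it, and replicate 3 was the lowest of all 9 libraries. The luteolin libraries were all below those of control (-1.0 ± 0.37). In CIA against control the log2 fold change was -0.42 ± 0.37 and in luteolin against CIA -0.58 ± 0.37, and in both the groups overlapped. Without CIA replicate 3 these 2 values were -0.01 and -0.99, and without CIA replicate 1 they were -0.76 and -0.23.

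Cd36 is not confined to macrophages and is also known from B cells of the marginal zone, platelets and endothelium. Summed over 8 B cell markers, the level was 2049, 1984 and 2039 CPM in the control libraries, 1572, 914 and 275 in CIA and 438, 507 and 408 with luteolin. CIA replicate 3, where Cd36 was lowest, had the lowest sum, and CIA replicate 1, where Cd36 was highest, had the highest of its group. None of the 8 genes was at 0 in any library, and 8 of 8 fell in luteolin against control. Sums of 9 genes of marginal zone B cells were 668 to 748 CPM in control, 559 to 769 in CIA and 562 to 589 in luteolin, but their genes moved apart. With luteolin against control 5 fell, among them Dtx1 (195 to 49.8 CPM) and S1pr3 (5.75 to 1.28), and 3 rose, among them Myof (135 to 254 CPM). Cr2, the complement receptor of B cells, was at 83.5, 80.9 and 120.4 CPM in the control libraries, 215, 116 and 26.3 in CIA and 15.5, 19.6 and 15.1 with luteolin. The 9 platelet and megakaryocyte genes went another way, with sums of 32.8 to 34.1 CPM in control, 104 to 157 in CIA and 165 to 173 in luteolin. Itgb3 was the largest part of these sums, with means of 27.1, 96.2 and 77.2 CPM in control, CIA and luteolin. Against control 8 of the 9 rose and none fell, both in CIA and with luteolin. With luteolin against CIA they moved apart, where 3 rose and 2, Itgb3 and Gp1bb, fell. Gp9, Treml1 and Ppbp were at 0 in 2, 2 and 1 control libraries and in no others. The 12 stroma and endothelium genes summed to 104 to 108 CPM in control, 89.8 to 106 in CIA and 122 to 135 in luteolin, with Cxcl13 and Ccl21a at 0 in all libraries. Of the 6 tested, 3 rose with luteolin against control (Pdpn, Kdr and Ltbr), and 1 fell, the endothelial and platelet gene Pecam1 (87.0 to 62.6 CPM). The part of these cells in the level of Cd36 was not tested.

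**Figure D2:**
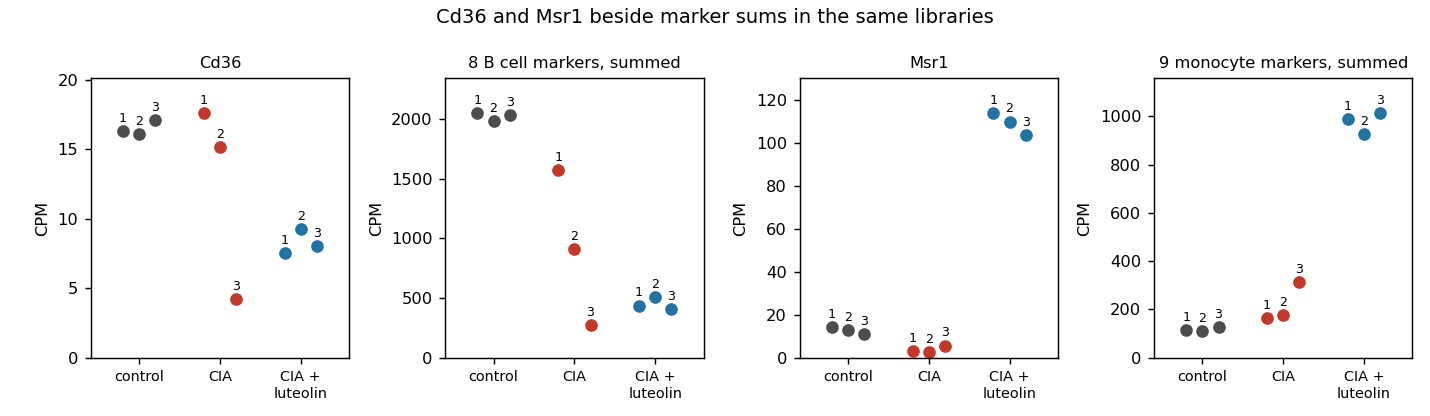
Cd36 beside the summed level of 8 B cell markers, and Msr1 beside the summed level of 9 monocyte markers, in CPM on linear axes from 0, with points numbered by replicate. CIA replicate 3 was the lowest library for Cd36 and for the B cell sum, and the luteolin libraries were the highest for Msr1 and for the monocyte sum. Chil3 was the largest part of the monocyte sum with luteolin.

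Of the 8 genes, 7 passed the filter on low counts. In CIA against control 6 of the 7 met the edgeR threshold (adjusted p below 0.05 over 19348 genes) as lower and none as higher, where 24.5% of all tested genes were called lower and 26.6% higher. The same 6 had groups that did not overlap, as had 58.7% of all genes, 29.1% lower and 29.7% higher. In luteolin against CIA those 6 genes were called higher and none lower, where 23.1% of all genes were called higher and 24.2% lower. Groups did not overlap for the 6, and for 55.7% of all genes, 28% higher and 27.7% lower. The median log2 fold change of the 7 was -3.84 in the first comparison and 5.44 in the second, beside -0.01 and -0.04 over all tested genes. These 2 comparisons share the CIA libraries, and the genes were chosen with these values in view, so nothing is read from the counts.

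In luteolin against control the 7 genes parted. By the same threshold 4 counted as higher (Msr1, Mrc1, Siglec1 and Timd4), where 24.2% of all genes did, and 1 as lower (Cd36), where 20.8% did. The groups of these 5 did not overlap, nor did those of 63.3% of all genes, 32.3% higher and 30.9% lower. The call of Cd36 was lost in 10 of 14 alternatives, among them the DESeq2 test, DESeq2 size factors, the replicate block and leaving out any 1 control or luteolin library or CIA replicate 2. The groups of Marco and of Cd5l overlapped. The median of the 7 was 1.51, beside -0.01 over all genes. Mean levels with luteolin were 128% of control for Marco and 67.1% for Cd5l, but 288% for Timd4, 598% for Mrc1, 848% for Msr1 and 1440% for Siglec1. In the same libraries 9 monocyte markers summed to 990.2, 927 and 1013 CPM with luteolin, 164, 178 and 313 in CIA and 115, 111 and 128 in the control libraries. Chil3 was the largest part of the luteolin sums, with means of 21.2, 81.7 and 485 CPM in control, CIA and luteolin. Gene by gene, 6 of the 9 rose and 1 fell in CIA against control. With luteolin against CIA 8 rose and none fell, and Cd14 (86.3 and 85.9 CPM) did not pass. With luteolin against control 8 rose and 1 fell. The gene that fell both times was Ms4a4c, the largest part of the control sums (44.1 CPM in control, 7.78 in CIA). None of the 9 was at 0 in any library, and their part in the levels of these receptors was not tested.

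**Figure D3:**
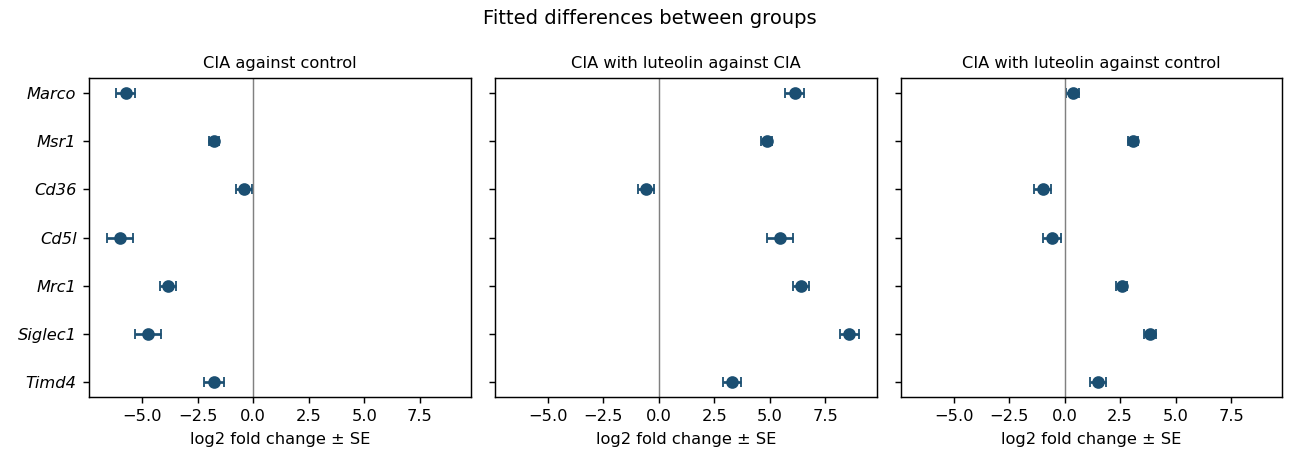
Fitted log2 fold changes with SE for the 7 genes that passed the filter, in each of the 3 comparisons. The 6 genes other than Cd36 lie left of 0 by more than their SE in CIA against control and right of it with luteolin against CIA, while Cd36 lies left of 0 in all 3 panels. Each pair of panels shares the libraries of 1 group.

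Per length, the order of the 7 genes differed between groups. In the control libraries Marco (16.5 ± 6.86 RPKM) and Cd5l (14.8 ± 6.38) led, with overlapping ranges. Within each control library Marco was the higher, with Cd5l at 0.921, 0.878 and 0.866 of it. Below them came Cd36 (4.59 ± 0.146), Msr1 (2.03 ± 0.263) and Mrc1 (0.471 ± 0.170), and then Timd4 (0.192 ± 0.0451) and Siglec1 (0.161 ± 0.0352), whose ranges overlapped. In CIA, Cd36 led at 3.43 ± 1.98 RPKM, above Msr1 (0.598 ± 0.261) and Marco (0.308 ± 0.135). Cd5l (0.218 ± 0.261) overlapped Marco above it and Timd4 (0.0563 ± 0.0270) below it, and Timd4 overlapped Mrc1 (0.0322 ± 0.0114). Siglec1 was last at 0.00617 ± 0.0107 RPKM.

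With luteolin, Marco (21.2 ± 3.35 RPKM) and Msr1 (17.2 ± 0.795) led with overlapping ranges, ahead of Cd5l (9.91 ± 2.50). Mrc1 (2.82 ± 0.445), Siglec1 (2.33 ± 0.218) and Cd36 (2.30 ± 0.247) formed a middle group whose ranges overlapped, and Timd4 (0.553 ± 0.0887) was last. As a share of the summed RPKM of the 7 genes, Msr1 made up 4.49% to 7.62% in the control libraries and 28.8% to 34% with luteolin. Cd5l made up 32.2% to 40.1% and 14.6% to 20%, and Marco 37.2% to 44.5% and 34.1% to 40.3%. Cd36 took 44.7% to 84.8% in CIA, where the others were low.

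**Figure D4:**
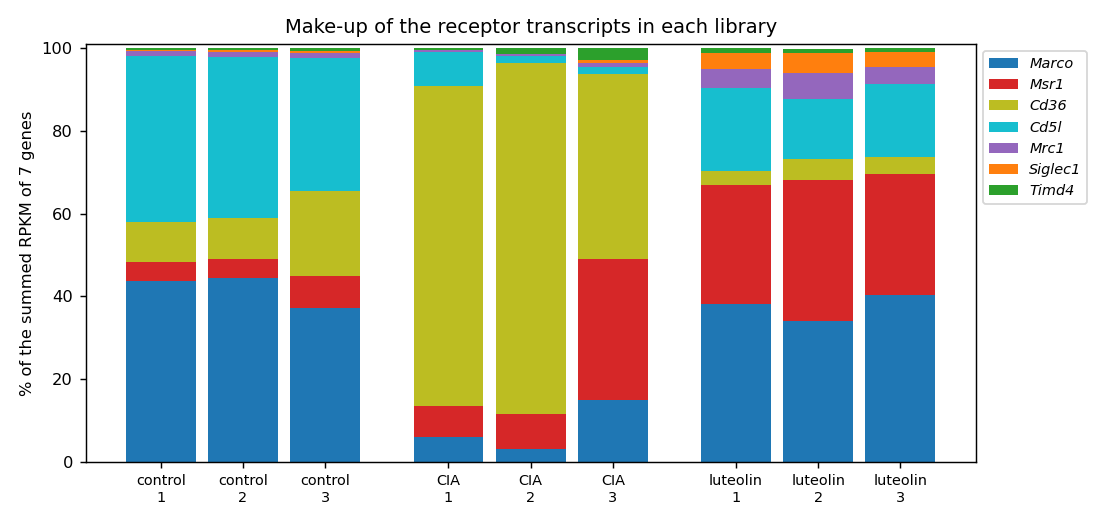
Share of each gene in the summed RPKM of the 7 genes, in percent, 1 bar per library. Marco and Cd5l fill most of the bars of the control libraries, Cd36 the largest part in CIA, and Marco and Msr1 the largest parts with luteolin.

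Single libraries set the receptors apart from each other. Control replicate 3 had Marco, Cd5l and Mrc1 at 0.420, 0.404 and 0.490 of the mean of the other 2 control libraries, whereas Msr1 was at 0.813, Cd36 at 1.06 and Csf1r at 0.957. The median over all tested genes was 0.996. In CIA replicate 3, set against the other 2 CIA libraries, Msr1 was at 2.00 and Marco at 1.5, while Cd5l was at 0.161 and Cd36 at 0.259. The ratios of Marco and Cd5l rest on few reads, with 26, 10 and 23 counts for Marco and 38, 6 and 3 for Cd5l in CIA replicates 1 to 3. Marco was alike in replicates 1 and 3 and lower in replicate 2, and Cd5l was high in replicate 1. Across all 9 libraries the correlation of log2 levels was highest between Msr1 and Siglec1 (Pearson r = 0.987) and between Siglec1 and Timd4 (0.979), and was 0.963 between Marco and Cd5l. Cd36 had r between -0.386 and 0.273 with the other 6. These are descriptions over 9 libraries that fall into 3 groups and share their depth.

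The genes most like each of them were taken from 10979 named genes with a mean of at least 2 CPM, by Pearson r of log2 levels over the 9 libraries. For Cd5l the closest was Nr1h3, the oxysterol-sensing nuclear receptor LXR alpha (r = 0.994), at 7.52 ± 1.69, 1.28 ± 0.452 and 7.50 ± 0.819 CPM in control, CIA and luteolin. Siglec1 was close to Sh3bp4 and to Isg15, the ubiquitin-like interferon-induced protein (0.997 and 0.997). Mrc1 was most like the guanylate-binding protein genes Gbp5 and Gbp3 (0.998 and 0.997) and the lipid-presenting molecule Cd1d1 (0.997). Timd4 was most like Lrp8 and Gbp6 (0.993 and 0.991). For Msr1 they were Creb5, Papss2 and Ly6i (0.999, 0.998 and 0.997), and for Marco Rassf8, Rgl1 and Arhgap22 (0.997, 0.995 and 0.994). Cd36 had Myo18a, Emid1 and Rad50 (0.987, 0.977 and 0.976). Likeness to the mean of the 7 scaled genes was highest for Ddhd1, Smc2, Bcl2a1a, Zfp993, Hmgn2 and Zfp991, with r of 0.997 to 0.999.

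Related receptors were taken by family membership, 44 genes in all, of which 43 are in the table and 31 were tested. In CIA against control 9 rose, 11 fell and 11 did not pass, with a median log2 fold change of 0.09. In luteolin against CIA 15 rose, 1 fell and 15 did not pass (median 1.07), and with luteolin against control 19 rose, 4 fell and 8 did not pass (median 1.25). Among all tested genes 51.1%, 47.3% and 45% passed in these comparisons.

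Scavenger receptors of other classes split in CIA, where 5 of 14 fell, 3 rose and 6 did not pass, and 9 rose and none fell with luteolin against CIA. Cxcl16, a transmembrane chemokine that binds oxidised lipid, fell from 41.7 ± 2.24 to 9.89 ± 2.39 CPM (log2 fold change -2.08 ± 0.15, edgeR adjusted p = 5.70e-06) and was at 124 ± 8.11 CPM with luteolin (3.65 ± 0.16 against CIA). It shares 18.3% of its exonic bases with Zmynd15. The beta-glucan receptor gene Clec7a fell by 1.68 on the log2 scale (SE 0.18) and rose by 2.92 ± 0.18 with luteolin. Lrp1, an endocytic receptor for lipoproteins and protease complexes, was at 71.2 ± 6.34, 35.3 ± 12.4 and 349 ± 32.9 CPM in control, CIA and luteolin, and all 3 differences passed. Olr1, the oxidised LDL receptor LOX-1, rose in CIA instead (1.40 ± 0.26) and did not pass with luteolin against CIA (-0.03 ± 0.25, edgeR adjusted p = 0.925). That value was 0.39 and passed once CIA replicate 3 was left out (adjusted p = 0.0273). Stab1, a clearance receptor of sinusoidal endothelium and macrophages, did not pass in CIA (0.25 ± 0.17, adjusted p = 0.236), though at 0.40 it did once CIA replicate 1 was left out. It rose in luteolin against CIA (2.32 ± 0.17).

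SRCR domain proteins, the family of Cd5l, had 6 tested genes. In CIA 3 rose and 1 fell. The T cell surface genes Cd5 (2.27 ± 0.21) and Cd6 (1.93 ± 0.20) rose, beside Cd4 (5.44 ± 0.26). Lgals3bp, a secreted galectin-binding glycoprotein, fell from 62.1 ± 8.79 to 16.1 ± 2.31 CPM (-1.95 ± 0.13) and rose to 206 ± 2.40 CPM with luteolin (3.68 ± 0.13, edgeR adjusted p = 3.16e-08), the one gene of this list that passed in that comparison. Cd163, the haemoglobin scavenger receptor of red pulp macrophages, was low at 0.0969 ± 0.0312, 0.410 ± 0.370 and 0.353 ± 0.0266 CPM. It passed in CIA against control by a narrow margin (1.99 ± 0.76, edgeR adjusted p = 0.0498), and not after DESeq2 size factors (2.00, adjusted p = 0.0503) nor without any 1 control library or CIA replicate 2 or 3, the last giving 1.10. The SRCR genes Ssc4d (0.54 ± 0.30) and Ssc5d (0.73 ± 0.76) did not pass in CIA or with luteolin against CIA (-0.78 ± 0.30 and -0.72 ± 0.76), though Ssc4d did in both without CIA replicate 3 (0.79 and -1.03).

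In the mannose receptor family Ly75, the endocytic receptor DEC-205, fell from 133 ± 2.25 to 48.4 ± 3.83 CPM in CIA (-1.46 ± 0.08, edgeR adjusted p = 1.61e-06) and rose to 229 ± 11.3 CPM with luteolin (2.24 ± 0.08). Mrc2, a collagen receptor, was at 0.654 ± 0.0491, 0.353 ± 0.268 and 0.749 ± 0.304 CPM and did not pass in either of these comparisons (-0.91 ± 0.50 and 1.09 ± 0.49), but passed in both without CIA replicate 3 (-1.69 and 1.87). Among relatives of Siglec1, the B cell inhibitory receptor gene Siglecg fell in CIA from 186 ± 14.5 to 43.3 ± 29.8 CPM (-2.10 ± 0.47). It did not pass in luteolin against CIA (0.00 ± 0.45), but was at -0.45 and passed once CIA replicate 3 was left out. Cd22, of B cells as well, was at 423 ± 13.1, 237 ± 177 and 82.5 ± 13.1 CPM and passed with luteolin against CIA (-1.52 ± 0.49), but not without CIA replicate 1 (-0.86, adjusted p = 0.101) or CIA replicate 2 (-1.50), nor without any 1 of the luteolin libraries (-1.61 to -1.44).

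Siglech, a marker of plasmacytoid dendritic cells, fell in CIA from 1.006 ± 0.414 to 0.0689 ± 0.0410 CPM (-3.80 ± 0.50) and rose with luteolin (3.44 ± 0.51). The myeloid genes Cd33 (0.63 ± 0.12) and Siglece (0.96 ± 0.13) rose in CIA. So did the eosinophil gene Siglecf, which had 2, 0 and 2 counts in the control libraries, 12, 24 and 36 in CIA and 60, 61 and 44 with luteolin, too few in control for a fold. In luteolin against CIA, Cd33 rose again (0.77 ± 0.12), and so did Mag (1.43 ± 0.30), a sialic acid-binding protein first known from myelin. Among relatives of Timd4 the 3 genes differed. Havcr2, or TIM-3, rose in CIA (1.03 ± 0.33) and again with luteolin against CIA (1.55 ± 0.32). The first of these calls was lost without control replicate 2 or 3 and without CIA replicate 3, where it was 0.51, and in a fit of the 6 libraries compared. Havcr1, or TIM-1, fell in CIA (-1.92 ± 0.52) and Timd2 fell with it (-3.45 ± 0.42), and neither passed with luteolin against CIA (-0.72 ± 0.58 and 0.76 ± 0.47; Havcr1 was at -1.23 and passed without CIA replicate 3).

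**Figure D5:**
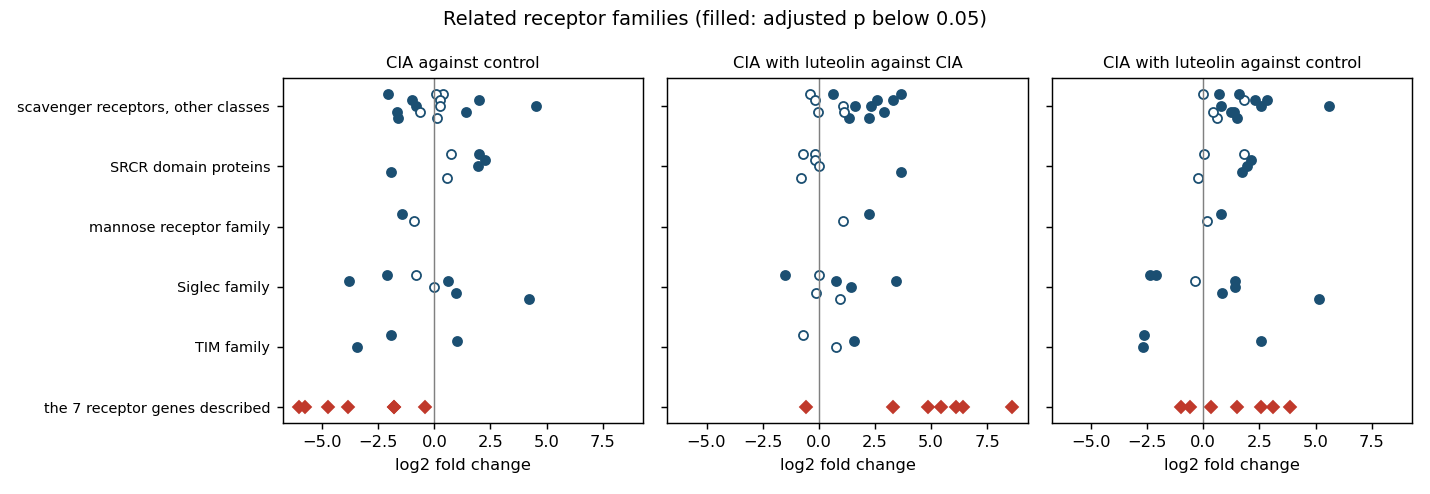
Log2 fold changes of the tested members of each related family, 1 point per gene, filled where the edgeR adjusted p is below 0.05, with the 7 chosen genes as diamonds for which no test is marked. Cd163 appears in 2 of the lists. Points lie on both sides of 0 in CIA against control, and 15 of 31 genes rose and 1 fell with luteolin against CIA.

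Of 11 transcription factors known from macrophages, 7 fell and 3 rose in CIA, and 7 rose and none fell with luteolin against CIA. Runx3, 1 of the 3, passed by a narrow margin (33.8 to 39.3 CPM, edgeR adjusted p = 0.0485). Only 2 rose in CIA under the DESeq2 test, no filter, the replicate block or a fit of the 6 libraries compared. The same held with any 1 library left out except CIA replicate 3. Nr1h3, low in CIA like Marco and Cd5l, had log2 fold changes of -2.54 ± 0.25 in CIA against control, 2.53 ± 0.25 with luteolin against CIA and -0.01 ± 0.22 with luteolin against control, the last not passing (adjusted p = 0.984). Spic, the factor of red pulp macrophages, fell in CIA (-2.25 ± 0.15), rose with luteolin against CIA (1.60 ± 0.15) and fell in luteolin against control (-0.65 ± 0.14). Tfec rose with luteolin against control, from 6.45 ± 0.463 to 31.9 ± 2.64 CPM (2.30 ± 0.22). Maf, which T cells also express, rose in CIA instead (1.58 ± 0.21). Spi1, the gene of PU.1, rose in CIA too and did not pass with luteolin against CIA. It was at 65.3 ± 2.83, 135.3 ± 31.55 and 122.8 ± 3.30 CPM in control, CIA and luteolin.

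Genes known as targets of LXR were 10 in number, Nr1h3 itself among them, and 6 fell and none rose in CIA. In luteolin against CIA 7 rose and 1, Apoe, fell. Apoe, the most abundant of the 10, did not pass in CIA. It was at 1844 ± 118, 1660 ± 41.7 and 1268 ± 53.8 CPM in control, CIA and luteolin. Srebf1 passed in neither comparison (19.1 ± 0.114, 17.1 ± 0.883 and 19.1 ± 0.639 CPM). Mertk, which binds dying cells through bridging proteins, was at 4.33, 4.02 and 2.91 CPM in the control libraries, 0.111, 0.0878 and 0.397 in CIA and 16.97, 16.9 and 15.3 with luteolin (-4.28 ± 0.35 in CIA against control and 6.40 ± 0.34 with luteolin against CIA). The cholesterol exporter gene Abca1 fell in CIA (-1.70 ± 0.16) and rose with luteolin (2.49 ± 0.16). Mylip, which degrades the LDL receptor, fell in CIA (-0.82 ± 0.20) and did not pass with luteolin against CIA (-0.20 ± 0.20), unless CIA replicate 3 was left out (-0.41).

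Genes that act with Cd36 in fatty acid uptake and signalling went both ways, with 5 of 12 higher and 4 lower in CIA, and 6 higher and 5 lower in luteolin against CIA. Fabp4, a fatty acid-binding protein of macrophages and fat cells, fell from 9.95 ± 2.46 to 0.676 ± 0.398 CPM in CIA (-3.85 ± 0.32, edgeR adjusted p = 1.36e-05) and rose to 14.6 ± 0.599 CPM with luteolin (4.39 ± 0.32). Acsl1, which activates fatty acids, and Lpl, which frees them from lipoproteins, rose with luteolin against CIA (2.82 ± 0.21 and 2.93 ± 0.34). The surface partner Cd9 and the kinase gene Fyn went the other way, up in CIA (1.81 ± 0.23 and 0.83 ± 0.11) and down with luteolin (-0.98 ± 0.22 and -0.89 ± 0.11). Without CIA replicate 3 the last value of Cd9 was -0.64. Cpt1a and Lyn, of fatty acid oxidation and of CD36 signalling, fell in luteolin against CIA too (-0.41 ± 0.10 and -0.54 ± 0.07).

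General macrophage markers did not move as one group. Of 17 tested genes 8 fell and 6 rose in CIA, and 12 rose and 1 fell with luteolin against CIA. Their summed level was 2524, 2413 and 2323 CPM in the control libraries, 2891, 3955 and 5404 in CIA and 6622, 5830 and 6694 with luteolin, with Vsig4 the one gene not tested. Lyz2 contributed to these sums with means of 358, 1890 and 2160 CPM. Csf1r did not pass in CIA against control (0.20 ± 0.14, edgeR adjusted p = 0.231), unless CIA replicate 2 was left out (0.34), in the libraries where Marco and Cd5l were at 1.86% and 1.48% of control. It rose by 1.92 ± 0.14 in luteolin against CIA, and shares 15.1% of its exonic bases with Hmgxb3. Its ligand gene Csf1 fell in CIA (-1.28 ± 0.14) and rose with luteolin (1.63 ± 0.14), and both tested genes of the CSF1 list rose in that comparison. Lyz2, a lysozyme gene of all myeloid cells, rose in CIA (2.40 ± 0.26), beside 12 neutrophil markers that summed to 2464, 2104 and 2203 CPM in the control libraries and 6726, 10050 and 11260 CPM in CIA, and to 9076, 8651 and 8655 CPM with luteolin. S100a9 was the largest part of the neutrophil sums, with means of 1648, 6744 and 3971 CPM in control, CIA and luteolin. The 12 genes moved apart with luteolin against CIA, where 5 rose and 6 fell. Mpo (1.54 to 261 CPM) and Ngp (262 to 2268 CPM) were among those that rose. Ly6g (8.58 to 1.575 CPM) and Retnlg (50.9 to 9.14 CPM) were among those that fell. The part of neutrophils in the result was not tested. The adhesion gene Vcam1 of red pulp macrophages fell in CIA (-3.66 ± 0.20) and rose with luteolin (5.49 ± 0.20). Fcgr1, the high-affinity IgG receptor, did not pass in CIA (-0.43 ± 0.30), unless CIA replicate 3 was left out (-0.91), and rose from 0.850 ± 0.450 to 16.7 ± 0.947 CPM with luteolin (4.31 ± 0.27).

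The complement genes C1qa, C1qb and C1qc, made by tissue macrophages, fell in CIA and rose with luteolin in each case. C1qa was at 0.850, 1.38 and 1.27 CPM in the control libraries, 0.167, 0 and 0 in CIA and 3.85, 3.30 and 2.32 with luteolin (-4.22 ± 0.67 in CIA against control and 5.66 ± 0.63 with luteolin against CIA, edgeR adjusted p = 0.000561 and 4.84e-05). In the list of C1q and soluble lipid carrier genes that holds them, 4 of 6 genes fell in CIA, and 4 rose and 1 fell with luteolin against CIA. C1qa was at 0 in 2 CIA libraries, and without CIA replicate 1 its values were -8.40 and 9.85. Those of C1qb were -7.67 and 10.23 without CIA replicate 2, so folds against CIA depend on few reads. All 3 genes were at 0 in CIA replicate 3, where Siglec1 had its only CIA counts and Msr1 was the highest of its group.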

How the data were processed

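RNA-seq libraries of mouse spleen cells labelled CD4+ T cells form 3 groups of 3, by the labels. The table holds raw counts per gene. The authors counted them with featureCounts (Subread 1.5.1) on reads mapped by a program spelled STRA, version 2.5.3a, per the labels' protocols. Trimming was by Trimmomatic 0.36, per the submitters' processing notes. These notes name build mm39, and the protocol names the hamster genome CHOK1GS. The kit was stranded, but the strand setting of the counting, its rule for reads on several genes and the annotation release are not given in the sources used here, so overlapping and antisense genes cannot be told apart. The 8 genes share no exonic base with another gene. Of the other genes named that were checked, 11 share some, at most 18.3% of their length. Some marker and list genes were not checked for this. Lengths are from the deposited table. Even numbers made up 73.4% of the 84618 values from 1 to 10, as when each mate of a pair is counted.

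The count test was edgeR 4.0.16 (R 4.3.3) with filterByExpr, TMM factors of 0.95 to 1.018, quasi-likelihood fits to all 9 libraries with a term per group, 2-sided tests and Benjamini-Hochberg adjustment over 19348 genes at a threshold of 0.05. The procedure was tested on simulated data. An SE is the size of a log2 fold change over the square root of its F. Every pair of libraries within a group differed beyond counting noise (chi-square of 5.51 or more per degree of freedom), so each counted as 1 replicate. Intervals and limits from counts cover counting error only. Likeness used log2 CPM with a prior count of 2, over 10979 genes with a mean of 2 CPM or more, leaving out gene models and receptor segments. By rule the text names genes among the 4 of each list with the smallest p in CIA against control and the 4 in luteolin against CIA, and all tested Siglec, TIM and mannose receptor genes. Some genes that fall under these rules are not reported here. Cd4, Cr2, other cell type marker genes, Spi1, Apoe and Srebf1 were picked after their values were seen. The 8 genes and the lists were chosen with earlier results of these data known. Alternatives were the DESeq2 1.42.0 test, DESeq2 size factors, no filter, only the 6 libraries compared, a replicate block and leaving out each library in turn. The labels do not say that same-numbered libraries belong together, so the main fit did not take numbers as pairs. Deviations of same-numbered libraries had correlations of 0.007 to 0.143, all above 0. Those of differently numbered libraries ran from -0.177 to 0.092. What the shared numbers stand for was not tested, and the replicate block shows what pairing by number would change.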

Additional observations from a re-analysis of the deposited data

How the results depend on the processing

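Counts of genes called kept within 1.5 times the reported 9886, 9148 and 8708 under every alternative run: 8073 to 11065, 7289 to 9884 and 6835 to 10306 when 1 library was left out, and 9794, 9148 and 8764 with the replicate block. Of the related receptors 18 to 22, 15 to 23 and 23 to 24 were called with 1 library left out, and 19, 18 and 23 with the block. The block changed the call of Cd163 in CIA against control (1.82, adjusted p = 0.0935) and, with luteolin against CIA, of Mrc2 (1.15), Cd22 (-1.31), Maf (0.61) and Ssc4d (-0.77), and of Cd36 in luteolin against control, and 1 of the 8 platelet calls in CIA against control. With the block the macrophage transcription factors that rose in CIA were 2 and not 3. It changed no other call of the related receptors and list genes whose fold changes are given, Cd4 not checked. Of 9 same-numbered pairs 2 had correlated deviations above 0.1, and 7 of 9 libraries correlated best with their own number in both other groups. Of the 8 genes 6 to 7, 6 to 7 and 4 to 7 were called in the 3 comparisons under all alternatives, 7 in each with no filter. Of 231 fitted values of the 8 genes under alternatives, 4 moved by more than the replicate spread, those of Cd5l without CIA replicate 1 and of Siglec1 without CIA replicate 3, and none of the called differences changed sign. In luteolin against CIA the signs of Olr1 (-0.23 to 0.39 with 1 library left out) and Siglecg (-0.45 to 0.54) turned without CIA replicate 3, and the cause was not tested. At this depth Cd209b, and Siglec1 in 2 CIA libraries, were not detectable.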
